A study of Mus musculus with 12 samples.

Results

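The small heat shock proteins are 7 genes here, Hspb1, Hspb2, Hspb3, Hspb6, Hspb7, Hspb8 and Cryab, taken by symbol from a table of 24132 gene symbols. They were measured by sequencing of polyadenylated RNA from mouse neonatal tail tip fibroblasts, the connective tissue cells of the tail of newborn pups. All 3 genotypes came from a backcross to C57BL6, and the cells were wild type for Hotair, a long noncoding RNA gene of the HoxC cluster, heterozygous for its disruption, or knockout, with 2 libraries per genotype. The sources used here do not say how the allele was disrupted, nor whether the libraries of a genotype came from separate mice, pools or cultures. Values are RPKM, that is, coverage per kilobase of the gene and scaled to the library's total, so levels can be compared between genes. The symbols were chosen by family name with their RPKM values in the 3 genotypes already known, so every value of a member is a description. Model differences and the side of a threshold are given for members only to set them beside all genes, with no p-value and nothing concluded from them. Of the 7 genes, 6 passed the filter used for tests (at least 1 RPKM in at least 2 of the 6 libraries), and Hspb3 did not.

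Small heat shock proteins share an alpha-crystallin domain, assemble into oligomers and bind unfolding proteins without using ATP, holding them until chaperones of the Hsp70 family refold or remove them. Hspb1 and Cryab are induced by stress in many tissues and bind actin and intermediate filaments, whereas Hspb2, Hspb3, Hspb6 and Hspb7 are best known from heart and skeletal muscle. Hspb8 works with the co-chaperone Bag3 in the autophagic removal of damaged cytoskeletal proteins such as filamins.

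Hspb1 and Hspb8 were lower in heterozygous and knockout cells than in wild type, Hspb6 was slightly higher in both, Cryab was highest in heterozygous cells, and Hspb7 was lower in heterozygous but more than 3-fold higher in knockout cells. Cryab and Hspb1 were the most abundant members. As means over the 6 libraries, Cryab stood at 181 RPKM and Hspb1 at 117, levels reached by 239 and 363 of the 10897 genes tested (the gene itself included). Hspb8 (35.2 RPKM) and Hspb6 (25.1) followed, then Hspb7 (7.30), Hspb2 (0.958) and Hspb3 (0.201). Cryab and Hspb1 together made up 82.1% ± 0.213, 82.3% ± 0.344 and 79.3% ± 0.0495 of the summed RPKM of the 7 genes in the wild-type, heterozygous and knockout libraries (SD, n = 2). That sum was 402 ± 0.237 RPKM in wild type, 358 ± 6.72 in heterozygous and 341 ± 0.964 in knockout cells.

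**Figure D1:**
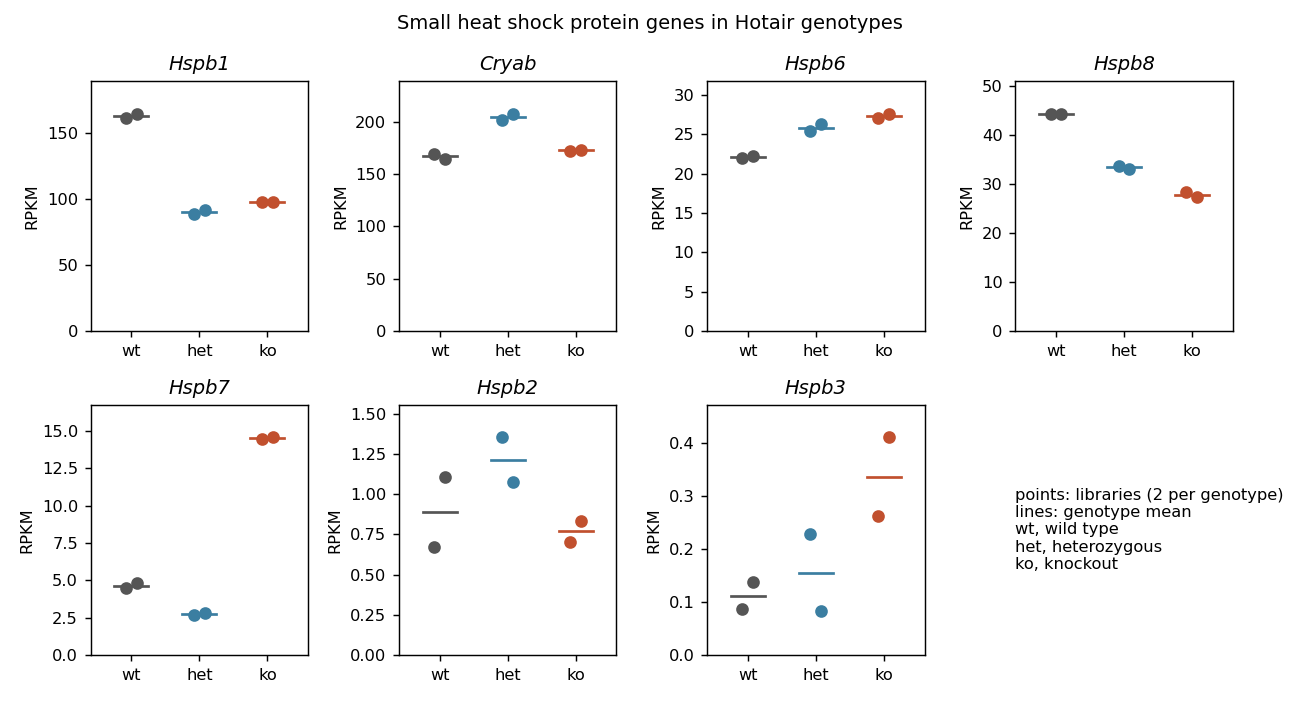
RPKM of each small heat shock protein gene (vertical axes, each from 0) in the 2 libraries of each Hotair genotype (points) with the genotype mean (lines). Hspb7 lies at 14.5 and 14.6 RPKM in the knockout libraries and under 5 in all others, and Hspb1 is above 160 RPKM in the wild-type libraries only.

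Libraries differed in depth, with between 1.03 and 1.23 gigabases aligned in wild type and heterozygous and 1.70 to 1.78 gigabases in knockout. Single reads added 37 bases to a gene most often, so 37 bases are called 1 read equivalent. Hotair was at 0.247 and 0.183 RPKM in wild type, at 0.213 and 0.172 in heterozygous and at 0 in both knockout libraries, where 3 read equivalents over the group would give 0.0143 RPKM. All 11 fibroblast markers passed the filter (sums of 5896 to 5919 RPKM in wild type, 5521 to 5616 in heterozygous and 5511 to 5532 in knockout). Vim and Col1a1 made up most of these sums, and low members moved within them, Lum from a mean of 2.31 RPKM in wild type to 6.58 in heterozygous and 13.6 in knockout, and Pdgfra from 2.51 to 9.22 and 6.38. Of 17 skeletal muscle markers, Acta1, Actc1 and Des passed the filter, actin paralogs can share reads, and the regulators Myod1, Myf5 and Myf6 were at 0 in every library. The summed list was at 277 RPKM in both wild-type libraries and at 177 to 181 in the others. Macrophage and leukocyte markers summed to 6.37 and 6.60 RPKM in wild type, 5.05 and 5.62 in heterozygous and 42.6 and 43.1 in knockout, and Schwann cell markers to 27.8 in both, 34.3 and 35.5, and 16.0 and 16.6. Ngfr made up most of the Schwann cell sums (means of 20.5, 23.6 and 11.1 RPKM). Within that list Cdh19 (0.196 RPKM in wild type, 0.327 in knockout) and S100b (0.526 and 0.623) were higher in knockout than in wild type. Its other genes were lower. Keratinocyte markers (sums of 0.946 to 1.96 RPKM) and endothelial markers (0.145 to 0.255) were near 0. In bulk RNA, fewer cells of a type and less RNA per cell cannot be told apart.

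Hspb1, the actin-binding small heat shock protein that stress kinases phosphorylate, measured 162 and 165 RPKM in wild type, 88.6 and 91.8 in heterozygous and 98.2 and 98.0 in knockout cells. The 3 genotypes did not overlap, and the heterozygous cells were the lowest. Means were 163 ± 2.36, 90.2 ± 2.24 and 98.1 ± 0.196 RPKM (SD, n = 2). On the log2(RPKM + 1) scale Hspb1 was 0.85 lower in heterozygous than in wild type (difference -0.85 ± 0.02, SE), 0.73 lower in knockout (-0.73 ± 0.02) and 0.12 ± 0.02 higher in knockout than in heterozygous cells. The comparisons with wild type share the same 2 wild-type libraries.

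Hspb8, the partner of Bag3, was at 44.3 and 44.4 RPKM in wild type, 33.8 and 33.1 in heterozygous and 28.3 and 27.4 in knockout. Again the genotypes did not overlap, but here the order followed the number of disrupted alleles. The differences on the log2 scale were -0.40 ± 0.03 for heterozygous against wild type, -0.65 ± 0.03 for knockout against wild type and -0.26 ± 0.03 for knockout against heterozygous cells (SE).

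Hspb1 and Hspb8 were lower than wild type in both other genotypes, and their promoters are shown with that of Hspb7. Hspb7 was lower in heterozygous cells too, but higher in knockout. These promoters were picked with the values known, so their comparison tests nothing. Sequences are from RefSeq (GRCm38.p6; the expression table uses mm9), written 5′ to 3′ along the gene's strand and numbered from the start site, with +1 the first transcribed base. Heat shock factor binds inverted repeats of GAA, and capitals mark every match to GAANNTTC, a motif that reads the same on both strands. The companion order, TTCNNGAA, was also searched and had no match in any member's window.

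Hspb1 (chr5:135887669-135887918, plus strand, positions -250 to -1): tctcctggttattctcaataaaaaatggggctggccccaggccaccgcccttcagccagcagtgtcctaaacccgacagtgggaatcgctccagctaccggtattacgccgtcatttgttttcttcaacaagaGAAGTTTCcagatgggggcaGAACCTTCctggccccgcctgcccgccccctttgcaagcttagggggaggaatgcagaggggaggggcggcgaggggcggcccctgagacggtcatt
Hspb8 (chr5:116422845-116422874, minus strand, positions -10 to 20): cagaagccaggaGAAGTTTCtaggctcgcg
Hspb7 (chr4:141420529-141420778, plus strand, positions -250 to -1): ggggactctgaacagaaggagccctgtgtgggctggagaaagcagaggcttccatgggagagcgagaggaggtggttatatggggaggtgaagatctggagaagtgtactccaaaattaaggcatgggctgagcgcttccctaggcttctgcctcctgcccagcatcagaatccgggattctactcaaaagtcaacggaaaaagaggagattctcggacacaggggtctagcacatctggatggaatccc

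The Hspb1 window held 2 matches, GAAGTTTC from -117 to -110 and GAACCTTC from -97 to -90, whose starts are 20 bases apart. Hspb8 had GAAGTTTC from 3 to 10, just after the start site, and Hspb7 had no match in its 300-base window. Promoter windows matched 5 of the 7 genes (Hspb1, Hspb3, Hspb6, Hspb7 and Hspb8). Hspb6 has 2 listed start sites, of which 1 carries GAAGTTTC from -120 to -113 and the other has no match, and Hspb3 carries GAATTTTC from -224 to -217. These latter matches are shown for their shared core.

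Hspb6 (chr7:30553161-30553208, plus strand, positions -140 to -93): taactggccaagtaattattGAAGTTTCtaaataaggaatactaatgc
Hspb3 (chr13:113663873-113663920, minus strand, positions -244 to -197): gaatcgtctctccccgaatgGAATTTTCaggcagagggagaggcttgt

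Of all 32851 promoter windows of the same length, 7.86% held GAANNTTC, 8.52% TTCNNGAA and 15.1% at least 1 of these. The longer TTCNNGAANNTTC or its reverse complement GAANNTTCNNGAA, which contain both short motifs, occurred in 0.603% of windows and in none of the 6 windows of the members. Counted by gene, 4 of 5 members with a window held a short motif, against 17.0% of 27025 symbols. Among the inducible chaperones and heat shock factors described below, 10 of 18 genes with a window held one. Their windows held the longer motif in 20.8% of cases. A match describes these letters only, and its absence says only that they are not in this window. The GAANNTTC core occurred in Hspb1, Hspb8, Hspb3 and 1 of the 2 windows of Hspb6, and its part in their levels was not tested.

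Cryab encodes alpha B-crystallin, a lens protein that is also abundant in muscle and stressed cells. It was at 169 and 164 RPKM in wild type, 201 and 208 in heterozygous and 172 and 173 in knockout. Both heterozygous libraries lay above all others. Cryab was 0.29 ± 0.02 higher in heterozygous than in wild type and 0.24 lower in knockout than in heterozygous cells (-0.24 ± 0.02, log2 scale, SE). Its knockout libraries were above the wild-type ones by a small margin (difference 0.05 ± 0.02), and this sign turned after median scaling of the libraries (-0.030).

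Hspb1 and Cryab, which can form mixed oligomers, thus stood at different proportions in each genotype. The ratio of Hspb1 to Cryab within a library, which a scaling factor for the whole library cannot alter, was 0.955 and 1.003 in wild type, 0.440 and 0.442 in heterozygous and 0.572 and 0.565 in knockout. The wild-type libraries thus held near-equal RPKM of both, and all 4 others held more Cryab. Cryab alone supplied 41.5% ± 0.825 of the summed RPKM of the 7 genes in wild type, 57.1% ± 0.192 in heterozygous and 50.5% ± 0.188 in knockout (SD, n = 2).

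**Figure D2:**
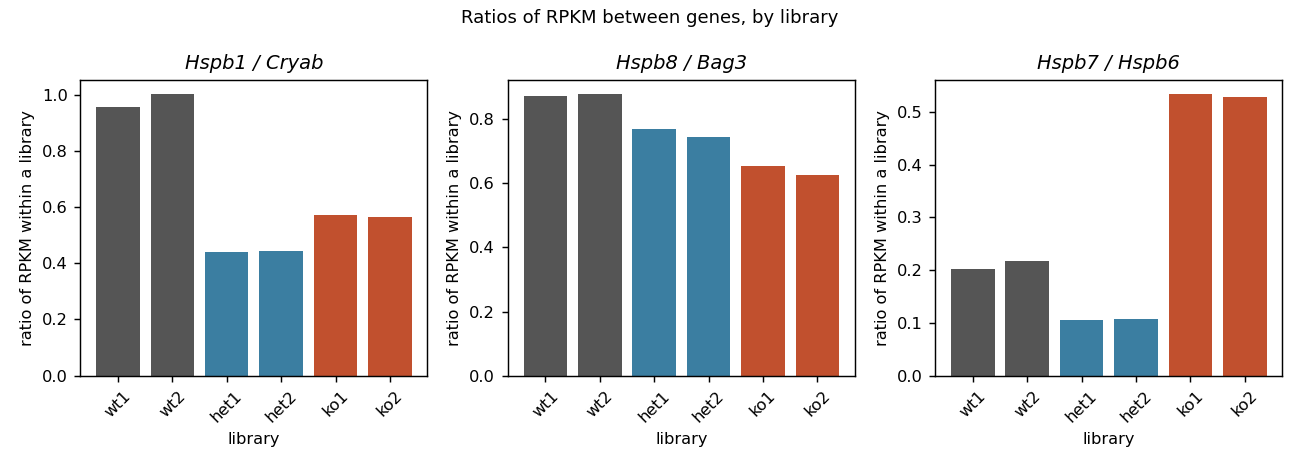
Ratio of RPKM between gene pairs within each library (bars from 0; wt, wild type; het, heterozygous; ko, knockout). Hspb1 to Cryab is near 1 in wild-type libraries and between 0.440 and 0.572 in the other 4; Hspb8 to Bag3 runs from 0.880 down to 0.625; Hspb7 to Hspb6 is above 0.5 in knockout only.

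Hspb6, a small heat shock protein of smooth and striated muscle that is phosphorylated when smooth muscle relaxes, was at 21.9 and 22.2 RPKM in wild type, 25.4 and 26.3 in heterozygous and 27.1 and 27.6 in knockout. The genotypes did not overlap, but they lay close together. Hspb6 was 0.22 ± 0.03 higher in heterozygous and 0.30 ± 0.03 higher in knockout than in wild type, and the step from heterozygous to knockout was 0.08 ± 0.03 (log2 scale, SE).

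Hspb7, a heart-enriched member that binds filamin C, was at 4.45 and 4.81 RPKM in wild type, 2.67 and 2.83 in heterozygous and 14.5 and 14.6 in knockout. On the log2 scale it had the widest range of the 6 members that passed the filter, and its order did not follow the number of disrupted alleles. Knockout exceeded wild type 3.14-fold and heterozygous 5.28-fold in RPKM (differences of 1.46 ± 0.05 and 2.05 ± 0.05 on the log2 scale), while heterozygous cells were below wild type by 0.59 (-0.59 ± 0.05). The Hspb7 row held 736 read equivalents in wild type, 490 in heterozygous and 3783 in knockout cells. The ratio of Hspb7 to Hspb6 was 0.203 and 0.217 in wild type, 0.105 and 0.108 in heterozygous and 0.534 and 0.528 in knockout.

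Among 10897 genes tested, the profiles nearest to that of Hspb7 (distance between log2 values centred on each gene's mean, over 6 libraries in 3 genotypes) were those of Lyz1, a lysozyme of myeloid cells, and Lcp1, an actin-bundling protein of leukocytes. Lyz1 was at 0.674 and 0.846 RPKM in wild type, 0.352 and 0.375 in heterozygous and 5.46 and 5.80 in knockout (distance 0.456). Lcp1 was at 0.162 and 0.155, 0.117 and 0.0514, and 2.14 and 2.30 RPKM (distance 0.576). Both reached 1 RPKM in the knockout libraries only, so they passed the filter through the group in which they were matched to Hspb7, and reads of Lyz1 can be shared with its paralog Lyz2. All 9 macrophage and leukocyte markers had their highest mean in knockout, and 6 passed the filter. Of these, Csf1r, Tyrobp and Fcer1g reached 1 RPKM in the knockout libraries only, so they too passed through that group. Heterozygous and wild type did not keep 1 order among the markers. Lyz2 was at 3.13 RPKM in wild type, 1.23 in heterozygous and 23.7 in knockout (means), whereas Cd68 was at 0.929, 1.51 and 7.54 and Csf1r at 0.487, 0.706 and 2.75. The defining pan-leukocyte gene Ptprc was at 0.0237 and 0 RPKM in wild type, 0.00528 and 0.0169 in heterozygous and 0.0576 and 0.0683 in knockout. The part of such cells in the Hspb7 level was not tested. The muscle gene Des was also highest in knockout (3.22 and 2.81 RPKM, against 1.04 and 1.23 in wild type and 0.751 and 0.878 in heterozygous). The other muscle markers that passed the filter went the other way, with means of 244, 160 and 159 RPKM for Acta1 and 30.8, 17.7 and 14.7 for Actc1 in the order wild type, heterozygous, knockout.

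The remaining muscle members were barely expressed. Hspb2, which binds the myotonic dystrophy kinase, was at 0.672 and 1.11 RPKM in wild type, 1.35 and 1.08 in heterozygous and 0.703 and 0.834 in knockout, and it passed the filter through 1 wild-type and both heterozygous libraries. Wild type overlapped both other genotypes. The log2 difference was -0.09 ± 0.12 for knockout against wild type (0.08 without the second wild-type library) and 0.24 ± 0.12 for heterozygous against wild type (SE). Knockout was below heterozygous without overlap (-0.32 ± 0.12), and this difference crossed the threshold in 5 of 14 alternatives. The row rested on 42.7, 66.2 and 60.8 read equivalents in wild type, heterozygous and knockout. In the RefSeq table Hspb2 overlaps Cryab on chromosome 9, and its RPKM was between 0.398% and 0.673% of the Cryab level. Reads of such overlapping rows cannot be told apart where counting ignores strand. The sources used here name a dUTP library method but do not say whether counting used strand. Cryab also overlaps 2310030G06Rik, and Hspb6 overlaps Lin37.

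Hspb3, which pairs with Hspb2 in muscle, was at 0.0864 and 0.138 RPKM in wild type, 0.228 and 0.0821 in heterozygous and 0.263 and 0.410 in knockout. Both knockout libraries were above all others. Pooled over the 2 libraries, 24.6 read equivalents in knockout gave 0.335 RPKM (95% exact Poisson interval 0.216 to 0.496, counting error only), 7.92 in heterozygous gave 0.157 (0.0675 to 0.311) and 5.0 in wild type gave 0.111 (0.0361 to 0.260). As means over the 6 libraries other family rows were lower still, although Hspb9 was above Hspb3 in wild type (means of 0.206 and 0.112 RPKM). Hspb9, a testis member, was at no more than 0.363 RPKM in any library, Odf1, of the sperm tail, at no more than 0.029, and the lens gene Cryaa was listed at 0 in all 6.

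Read as counts over the 6 members that passed the filter, no comparison went one way. In knockout against wild type 2 were past the threshold (limma, adjusted p under 0.05) upward, Hspb6 and Hspb7, and 2 downward, Hspb1 and Hspb8. Cryab was also past it upward with quantile normalization or without the first wild-type library, and Hspb2 downward with quantile normalization (-0.35). The same threshold called 67.2% of all genes tested, 40.6% higher and 26.6% lower. Libraries did not overlap in 3 members that were higher and 2 that were lower, where 83.8% of all genes had no overlap (49.3% higher, 34.5% lower).

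Heterozygous against wild type had 2 members past the threshold upward, Hspb6 and Cryab, and 3 downward, Hspb1, Hspb7 and Hspb8, against 52.6% of all genes (35.5% higher, 17.1% lower). Hspb2 joined them without the second wild-type library. The same 5 members had no overlap, against 76% of all genes (50.4% higher, 25.6% lower). Knockout against heterozygous had 2 upward, Hspb1 and Hspb7, and 2 downward, Hspb8 and Cryab, against 51.8% of all genes (26.4% higher, 25.4% lower). Hspb2 crossed it downward in 5 alternatives, among them leaving out either wild-type library, and Hspb6 upward with quantile normalization. There, 3 members were higher and 3 lower without overlap, against 77.8% (39.2% higher, 38.6% lower). Since the symbols were chosen with these values known, nothing is read from the counts.

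Hspb7 alone among the 6 members differed by at least 1 on the log2 scale without overlap. It did so in knockout against wild type, where 2.56% of all genes did (1.84% higher), and in knockout against heterozygous, where 0.743% did (0.486% higher). No member did in heterozygous against wild type, where 1.2% of all genes did (0.78% higher). The balance of all calls depends on scaling. Higher calls made up 60.4% of calls in knockout against wild type, but 46.7% with quantile normalization and 47.2% when medians were aligned. In heterozygous against wild type they made up 67.5%, against 51.1% and 45.5% under those scalings.

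**Figure D3:**
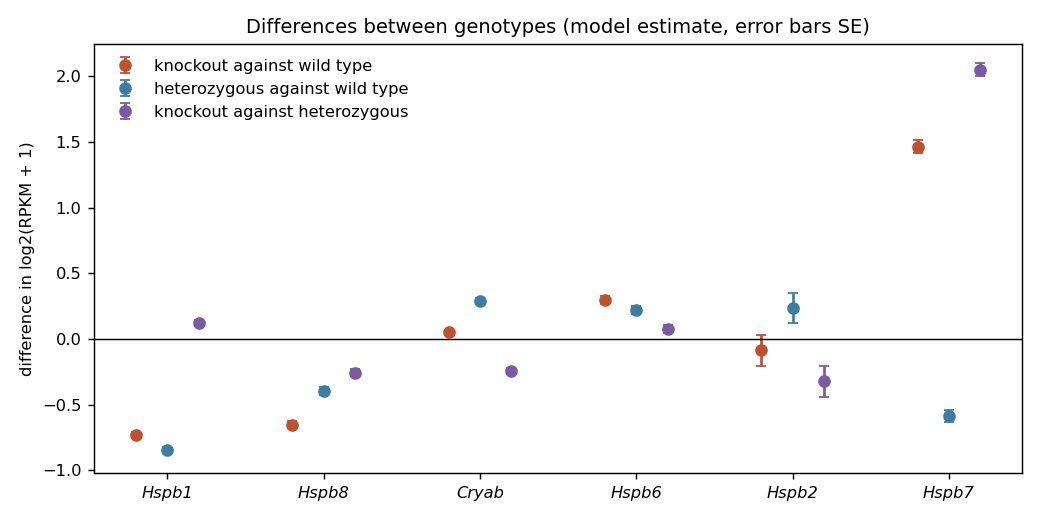
Difference in log2(RPKM + 1) between genotypes (points, model estimate; bars, SE) for the 6 members that passed the filter. Hspb1 and Hspb8 lie below 0 in both comparisons with wild type, and Hspb7 spans from -0.59 to 2.05.

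The chaperones that take over clients of small heat shock proteins, with the heat shock factors that induce both, were called about as often as all genes. Of 24 listed genes 23 passed the filter. In knockout against wild type 6 rose and 8 fell (limma, Benjamini-Hochberg adjusted p under 0.05), in heterozygous against wild type 7 and 6, and in knockout against heterozygous 7 and 5. The same threshold called 67.2%, 52.6% and 51.8% of all genes in these comparisons. Median log2 differences were -0.01, 0.02 and -0.02, beside 0.06, 0.07 and -0.00142 over all genes tested. In heterozygous against wild type the split turned to 2 rises and 9 falls after median scaling.

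Hsp90aa1, the inducible cytosolic Hsp90, was at 43.9 and 44.0 RPKM in wild type, 47.1 and 47.0 in heterozygous and 74.8 and 73.5 in knockout, a rise of 0.74 ± 0.02 in knockout against wild type (adjusted p = 3.92e-07). Dnaja1, a co-chaperone gene whose product delivers clients to Hsp70, rose by 0.62 ± 0.04 (limma, adjusted p = 1.52e-05). Hspa4l, an exchange factor of Hsp70, rose by 0.76 ± 0.06 (adjusted p = 2.02e-05). The inducible Hsp70 gene Hspa1a instead fell, from 24.7 and 23.7 RPKM in wild type to 16.4 and 17.0 in knockout, a difference of -0.51 ± 0.04 (adjusted p = 2.53e-05). Hspa1b, its near-identical neighbour, can share these reads. The constitutive Hsp70 gene Hspa8 fell by 0.13 on the log2 scale (-0.13 ± 0.01, adjusted p = 1.66e-05). Hsf1, the main heat shock factor, had means of 16.0 RPKM in wild type, 15.9 in heterozygous and 15.3 in knockout and did not pass the test in any comparison. Among the inducible genes named here, Hsp90aa1 and Dnaja1 thus rose in knockout cells while Hspa1a fell.

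The genes listed for the Bag3 pathway, in which Hspb8 hands damaged filamin to autophagy, were mostly lower. This list was chosen with earlier results of these data known, so its counts only describe these genes. Bag3 and Hspa8 are also on the list of inducible chaperones and heat shock factors. Of 13 listed genes 12 passed the filter (Synpo2 did not). In knockout against wild type 10 fell and 1 rose, in heterozygous against wild type 7 and 1, and in knockout against heterozygous 8 and 1, with medians of -0.21, -0.12 and -0.10. Of all genes 26.6%, 17.1% and 25.4% were called lower in these comparisons, with medians of 0.06, 0.07 and -0.00142. With the filter at 5 RPKM, nearer the level of these genes, the medians of all genes were lower, at -0.01, 0.03 and -0.04. Higher calls then made up 48.2% of calls in knockout against wild type. After quantile normalization 8 fell and 2 rose in knockout against wild type, and after median scaling 11 fell and 1 rose in heterozygous against wild type. Bag3 itself was at 50.8 and 50.4 RPKM in wild type, 44.0 and 44.5 in heterozygous and 43.2 and 43.8 in knockout. Hspb8 was lower by more than Bag3, so the ratio of Hspb8 to Bag3 within a library was 0.872 and 0.880 in wild type, 0.769 and 0.744 in heterozygous and 0.655 and 0.625 in knockout.

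The autophagy receptor gene Sqstm1 fell from 166 ± 0.225 RPKM in wild type to 121 ± 3.41 in knockout (SD, n = 2; -0.46 ± 0.02 on the log2 scale, adjusted p = 2.64e-06). Flna, a filamin whose product crosslinks actin and is a client of this pathway, was at 400 and 402 RPKM in wild type and at 316 in both knockout libraries, a fall (-0.34 ± 0.01, adjusted p = 5.54e-07). Flnc, the muscle filamin that Hspb7 binds, fell to 59.2 RPKM in heterozygous from 76.5 in wild type (-0.36 ± 0.02, adjusted p = 1.58e-05). In knockout it stood at 69.6 (-0.14 ± 0.02, adjusted p = 0.00097), a call lost after quantile normalization (-0.04). Flnc, like Hspb7, was lowest in heterozygous cells, but its knockout level stayed below wild type.

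The list of cytoskeletal genes taken as possible clients of Hspb1 or Cryab held 14 genes, all past the filter. It includes smooth muscle genes such as Tagln and Acta2, and client status was not tested. The list was chosen with earlier results of these data known, so its counts only describe these genes. These genes fell in 14 of 14 cases in heterozygous against wild type (median -0.37) and in 13 of 14 in knockout against wild type (median -0.34). Des was the exception, with a rise. In knockout against heterozygous 9 rose and 3 fell (median 0.14). Among all genes 17.1% fell in the first comparison (median 0.07), 26.6% in the second (median 0.06), and 26.4% rose in the third (median -0.00142). With the filter at 5 RPKM these medians of all genes were 0.03, -0.01 and -0.04. Apart from Des, genotype means on the list ran from 57.6 RPKM (Cnn1, heterozygous) to 5402 (Actb, wild type). No share of all genes was taken at that level. After quantile normalization, which forces the most abundant row Actb to 1 value, the falls were 12 and 11. Flna and Flnc are on both this list and that of the Bag3 pathway, and actin paralogs can share reads.

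Myl9, the regulatory light chain of myosin, was at 538 and 545 RPKM in wild type, 337 and 336 in heterozygous and 402 and 409 in knockout (-0.68 ± 0.01 for heterozygous and -0.42 ± 0.01 for knockout against wild type, adjusted p = 1.27e-07 and 4.28e-07). Tagln, the actin-binding transgelin of smooth muscle, was at 1324 in both wild-type libraries, 876 and 890 in heterozygous and 930 and 926 in knockout (-0.58 ± 0.01 and -0.51 ± 0.01, adjusted p = 8.35e-08 and 4.62e-08). Both were highest in wild type and lowest in heterozygous cells, the order also seen in Hspb1, although for Tagln the step from heterozygous to knockout turned with quantile normalization. Acta2, the smooth muscle actin, fell by 0.95 in heterozygous and by 0.80 in knockout against wild type (-0.95 ± 0.01 and -0.80 ± 0.01, adjusted p = 3.37e-09 and 1.11e-08). Actg1, a cytoplasmic actin, fell by 0.28 and 0.48 (-0.28 ± 0.01 and -0.48 ± 0.01, adjusted p = 1.03e-07 and 1.11e-08), so its knockout level was the lowest. Actb, the other cytoplasmic actin, was at 5379 and 5425 RPKM in wild type, 4182 and 4189 in heterozygous and 4967 and 4986 in knockout, below wild type in both. The part of a change in contractile cells in the Hspb1 level was not tested.

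**Figure D4:**
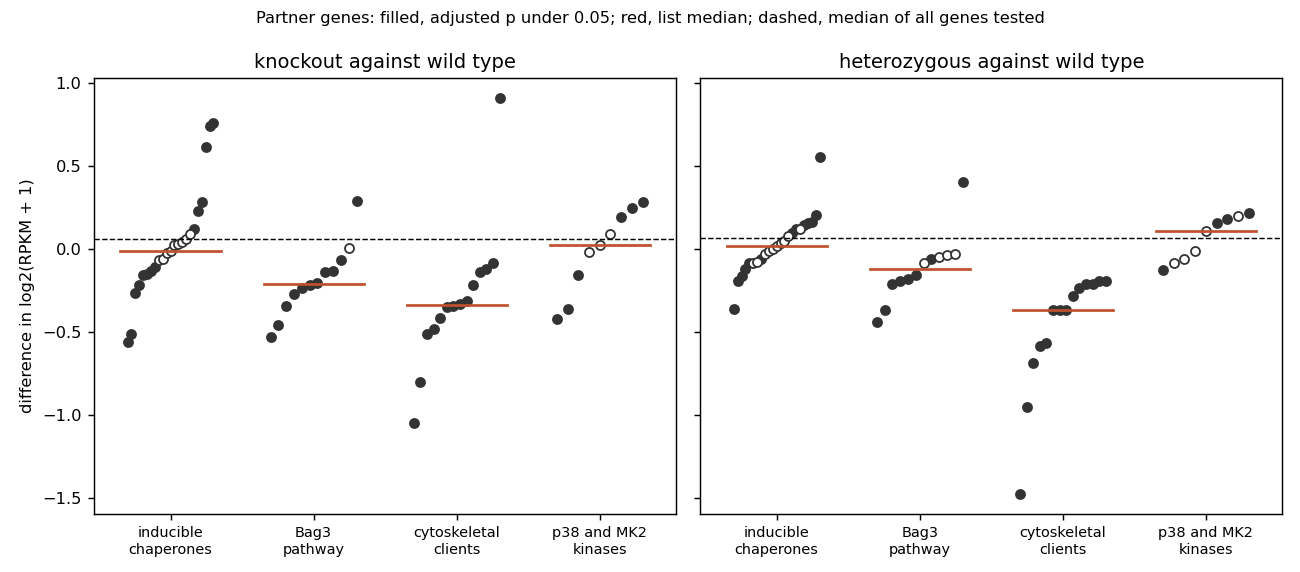
Difference in log2(RPKM + 1) for partner genes that passed the filter (points; filled where the adjusted p was under 0.05), by list, against wild type. Red lines are list medians and dashed lines the median of all genes tested. The list labelled cytoskeletal clients, whose client status was not tested, has medians of -0.34 and -0.37. All lists were chosen with earlier results of these data known.

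The kinases that act on Hspb1, p38 and MK2 with their activators and relatives, were 9 genes that all passed the filter. In knockout against wild type 3 rose and 3 fell, in heterozygous against wild type 3 and 1, and in knockout against heterozygous 0 and 3 (4 at an unadjusted p under 0.05). All genes were called in 67.2%, 52.6% and 51.8% of cases, so the 6 of 9 in knockout against wild type were near that share. The heterozygous count was 1 in all without the second wild-type library or without the second heterozygous one. Mapkapk2, which encodes MK2, the kinase that phosphorylates Hspb1 directly, was at 46.2 and 47.9 RPKM in wild type, 43.7 and 42.4 in heterozygous and 33.9 and 35.8 in knockout (-0.42 ± 0.04 for knockout against wild type, adjusted p = 3.69e-05). Map2k3, an activator of p38, was at 55.2 and 57.5, 57.0 and 54.8, and 43.4 and 43.8 RPKM (-0.36 ± 0.03, adjusted p = 3.77e-05), and Mapk14, p38 alpha, fell by 0.16 (-0.16 ± 0.03, adjusted p = 0.00434). Mapk12, the muscle-enriched p38 gamma, rose by 0.29 ± 0.06 (adjusted p = 0.00588), a call lost after quantile normalization (0.06). Mapkapk5, a relative of MK2, was at 7.98 and 8.21 RPKM in wild type, 9.10 and 9.20 in heterozygous and 8.14 and 7.87 in knockout. Mapkapk2 and Map2k3 were lowest in knockout cells, whereas Hspb1 was lowest in heterozygous cells.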

How the data were processed

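Poly(A) RNA libraries were made by a dUTP method, per the labels' protocols. Alignment used TopHat and mm9, according to the submitters' processing notes. The deposited table holds 1 value per symbol, from coverage tracks per the file headers. No header names the unit. These deposited values behave as RPKM: each is a whole number of aligned bases (tolerance 0.002) for some row length in all 18888 genes above 0, and library totals come out whole (largest residual 1.43e-06). Depth was 27.9M to 48.1M read equivalents of 37 bases. Intervals and floors cover counting error only. Replicates differed little beyond counting noise for a typical gene and were kept as 2 libraries. Their variance over counting variance, from the median deviation, was 1.15 in wild type, 1.25 in heterozygous and 1.20 in knockout. From the mean squared deviation over genes it was 1.55, 1.80 and 2.30. P-values here reflect spread among the libraries, possibly technical.

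Values were fitted as log2(RPKM + 1), which understates changes of low genes, with limma 3.58.1 in R 4.3.3 (3 group means, intensity trend, two-sided, Benjamini-Hochberg over 10897 genes). The fit was tested on simulated data. Members and gene lists were chosen with earlier results of these data known. Named partner genes are the 5 per list with the smallest p (1 is not reported here), plus the 2 nearest profiles to any member differing by at least 1. Bag3, Hspa1b, Hsf1, Synpo2, Des, Ptprc and overlapping genes are named outside that rule, with their values seen. Alternatives changed pseudocount, filter, scaling, trend, block, the groups fitted or left out a library. ChIP-seq libraries (6) were not analysed.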

Additional observations from a re-analysis of the deposited data

How the results depend on the processing

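Fits were repeated with a pseudocount of 0.1 or 5, other filters, quantile normalization, median scaling, a replicate block, no intensity trend, 2 groups in the fit and each library left out. For counts of called genes, 219 repeated values stayed within 1.5 times and 6 did not. Genes called in knockout against wild type numbered 4754 with a filter at 5 RPKM, which tests 6788 genes, against 7324. The p38 and MK2 kinases called in heterozygous against wild type numbered 4, but 2 without a filter on low values, 2 after median scaling and 0 after quantile normalization (limma; 2 at an unadjusted p under 0.05), and between 1 and 5 with a library left out; the cause was not tested. After quantile normalization Hspa8 in heterozygous against wild type turned to 0.047 and Tagln in knockout against heterozygous to -0.0056; the cause was not tested.

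Differences of Hspb1, Hspb6, Hspb7 and Hspb8 kept their sign in every alternative; for Hspb7 in knockout against wild type they ran from 1.02 (pseudocount of 5) to 1.63 (pseudocount of 0.1). Cryab in knockout against wild type ran from -0.030 to 0.12. Same-numbered libraries did not deviate together (correlations of -0.088, -0.062 and 0.065). Replicates lay near counting noise, which could hide a shared deviation, so this does not decide whether the numbers pair libraries. With the replicate block limma called 7253 genes for knockout and 5564 for heterozygous cells relative to wild type, and 5448 between knockout and heterozygous, compared with 7324, 5729 and 5644 without it. A library left out leaves 1 in its group, which is assumed to vary like the others. Depth limits Hspb2 and Hspb3, which rest on few reads, and Hspb2 has no value with the filter at 5 RPKM.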

Other observations

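Hspb11 carries a family symbol but encodes a subunit of intraflagellar transport, and was chosen after its values were seen. It was at 6.39 and 6.31 RPKM in wild type, 8.24 and 6.78 in heterozygous and 10.3 and 10.2 in knockout, with the heterozygous libraries further apart than those of the other genotypes. Hspbap1, whose protein binds Hspb1, also chosen after its values were seen, was at 1.81 and 2.41, 2.36 and 2.31, and 2.21 and 2.08 RPKM, and its wild-type libraries spanned all the others.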
